A study of Mus musculus with 267 samples.

Results

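RNA polymerase II (RNA Pol II) occupancy was compared between untreated macrophages and macrophages given interleukin-4 (IL-4), both grown from bone marrow (BMDMs), of the wild-derived inbred mouse strain PWK/PhJ (PWK), by chromatin immunoprecipitation and sequencing (ChIP-seq). All 60175 open chromatin regions of the PWK table were used, each 1000 bp long and centred on a reproducible ATAC-seq peak (a site open to a transposase) of basal or 24-hour IL-4 PWK macrophages. The file's annotation placed 10598 of them at promoters and 45917 in introns or between genes, here called distal regions. The comparison used 6 of the 267 libraries of the series, 3 basal and 3 after 24 hours with IL-4. Both groups came from female PWK mice of 8 to 12 weeks whose marrow was grown for 7 days with M-CSF, the growth factor of macrophages. The basal cells were left untreated and the others received 20 ng/mL mouse recombinant IL-4 for 24 hours. The wider study set C57BL/6J (C57), BALB/cJ (BALB), NOD/ShiLtJ (NOD), PWK and SPRET/EiJ (SPRET) macrophages side by side to ask how natural genetic variation alters the IL-4 response. The sources used here do not say whether libraries of a group came from separate animals, so p-values measure the spread between these libraries.

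IL-4 is a cytokine of T helper cells and granulocytes that moves macrophages toward a state associated with tissue repair, parasite defence and allergy. Its receptor signals through JAK kinases to the transcription factor STAT6, which induces further factors such as EGR2 and feedback inhibitors of the SOCS family. RNA Pol II transcribes protein-coding genes, and besides promoters and gene bodies it is also found at active enhancers, so its occupancy at a distal region is commonly read as a sign of regulatory activity.

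The reference sequences of 9 changed regions show the STAT letters whose shares are given with the motifs. The 6 distal regions, the promoter of Gm6116 and the promoter of Cish rose with IL-4 and were picked, after the letters were seen, because they hold them, while the Cx3cr1 promoter had the largest fall at a promoter and holds none. Other regions with large changes did not divide in this way. The Mgl2, Rnase2a and Cdc20b promoters and the Tmem26, Socs1, Pdgfrl and Cyp1b1 distal regions rose without such letters in their central 300 bases, and the Fcgr1 promoter and the region near Gpr31b fell and hold them. Each is the central stretch of its region from the plus strand of GRCm38.p6 (the mm10 coordinates), up to 300 bases. Promoter stretches stop at most 30 bases into the first exon of a coding gene. They are reference letters and not those of PWK, which carries its own variants. Capitals mark STAT letters on either strand: the STAT6 motif (TTCNNNNGAA) and, at Cish and once at Zeb2, the general STAT motif (TTCNNNGAA).
Il31ra intron, chr13:112551658-112551957: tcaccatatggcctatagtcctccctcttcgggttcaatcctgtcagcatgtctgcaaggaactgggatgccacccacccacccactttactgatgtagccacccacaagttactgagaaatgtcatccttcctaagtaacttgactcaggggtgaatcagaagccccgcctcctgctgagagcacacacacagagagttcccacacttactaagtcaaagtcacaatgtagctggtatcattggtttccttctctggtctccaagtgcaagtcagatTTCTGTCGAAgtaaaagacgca
Stxbp3 upstream, chr3:108845474-108845773: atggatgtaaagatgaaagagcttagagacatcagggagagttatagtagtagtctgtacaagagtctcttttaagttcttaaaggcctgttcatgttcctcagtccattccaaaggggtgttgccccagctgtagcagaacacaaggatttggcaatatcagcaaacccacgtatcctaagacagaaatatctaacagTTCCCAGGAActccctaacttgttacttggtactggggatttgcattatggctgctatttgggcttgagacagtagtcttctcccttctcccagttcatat
Zeb2 upstream, chr2:45126430-45126729: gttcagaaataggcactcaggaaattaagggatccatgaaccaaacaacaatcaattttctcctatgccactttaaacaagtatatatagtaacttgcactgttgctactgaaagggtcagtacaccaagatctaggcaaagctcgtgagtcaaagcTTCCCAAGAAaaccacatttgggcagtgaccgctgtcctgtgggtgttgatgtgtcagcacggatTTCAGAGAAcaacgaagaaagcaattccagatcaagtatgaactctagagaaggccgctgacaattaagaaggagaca
Cry1 upstream, chr10:85266285-85266584: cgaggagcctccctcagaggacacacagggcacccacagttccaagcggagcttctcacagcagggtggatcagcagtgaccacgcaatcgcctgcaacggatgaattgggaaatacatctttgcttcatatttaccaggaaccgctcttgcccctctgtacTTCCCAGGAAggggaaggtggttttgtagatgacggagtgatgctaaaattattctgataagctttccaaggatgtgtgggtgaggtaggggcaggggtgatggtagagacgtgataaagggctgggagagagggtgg
Slc7a2 upstream, chr8:40851045-40851344: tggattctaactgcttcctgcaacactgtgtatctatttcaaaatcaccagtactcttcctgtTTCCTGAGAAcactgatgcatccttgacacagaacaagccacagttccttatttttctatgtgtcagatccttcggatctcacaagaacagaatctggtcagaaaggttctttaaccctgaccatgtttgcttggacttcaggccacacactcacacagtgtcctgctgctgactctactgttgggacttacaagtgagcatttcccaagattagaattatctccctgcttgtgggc
Arg1 upstream, chr10:24930200-24930499: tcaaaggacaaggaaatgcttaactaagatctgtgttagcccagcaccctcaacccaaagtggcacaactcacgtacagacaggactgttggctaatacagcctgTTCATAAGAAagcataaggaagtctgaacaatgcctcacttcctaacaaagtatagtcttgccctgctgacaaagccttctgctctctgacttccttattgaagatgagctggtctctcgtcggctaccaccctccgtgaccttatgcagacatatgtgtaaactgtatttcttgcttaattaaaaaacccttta
Gm6116 promoter, chr5:74948574-74948873: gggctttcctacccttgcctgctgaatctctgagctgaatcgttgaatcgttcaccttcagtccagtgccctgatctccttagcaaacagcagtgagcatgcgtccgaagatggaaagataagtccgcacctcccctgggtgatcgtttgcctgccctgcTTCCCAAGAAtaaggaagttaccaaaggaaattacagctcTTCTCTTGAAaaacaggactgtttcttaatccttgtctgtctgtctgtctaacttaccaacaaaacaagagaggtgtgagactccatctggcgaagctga
Cish promoter, chr9:107296448-107296688: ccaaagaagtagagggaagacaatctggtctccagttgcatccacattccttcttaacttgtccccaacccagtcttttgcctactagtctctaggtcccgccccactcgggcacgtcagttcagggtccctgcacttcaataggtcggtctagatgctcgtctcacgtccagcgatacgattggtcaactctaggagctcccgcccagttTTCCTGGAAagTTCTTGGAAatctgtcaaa
Cx3cr1 promoter, chr9:120068267-120068463: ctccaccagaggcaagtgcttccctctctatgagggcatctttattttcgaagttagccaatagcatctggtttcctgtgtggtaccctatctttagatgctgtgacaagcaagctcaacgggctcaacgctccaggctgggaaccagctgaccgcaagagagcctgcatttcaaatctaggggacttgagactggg
The Il31ra stretch covers 89 bases of a coding exon of Il31ra, although the file annotates the region's centre as intronic. The marked letters at Cish lie within the annotated first exon of Cish, which starts at chr9:107296659, and not upstream of it. The Arg1 stretch lies in an exon of the noncoding transcript Gm40616, and the Cx3cr1 stretch lies in an exon of Gm33858, which overlaps the start of Cx3cr1 on the other strand. ChIP-seq does not tell strands apart, so polymerase on either transcript counts toward these regions.

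The 6 libraries held 9280872 to 14297706 tags, of which 28.6% to 34.8% fell in the 60175 regions. The authors scaled each library to 10000000 tags, so that 1 normalized tag stands for 0.928 to 1.43 reads. Replicates differed by more than sampling noise (chi-square per degree of freedom 3.37 to 8.67). Libraries with the same replicate number deviated together, and replicate 1 stood apart in both groups at several genes, as given beside their values. The number of cells that carry RNA Pol II at a region and its amount per cell cannot be told apart in such data.

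After 24 hours with IL-4, RNA Pol II changed at 1037 of the 60175 regions (1.72%), 868 higher (1.44%) and 169 lower (0.281%), by limma on log2(normalized tags + 1) with an adjusted p under 0.05. Most calls were gains in this fit, by a smaller majority with the replicate block given below. Distal regions made up 45917 of the 60175 regions, 765 of the 868 gains and 129 of the 169 losses. The distal share of the losses was thus close to that of all regions. At promoters, RNA Pol II rose at 54 of 10598 regions (0.51%) and fell at 24 (0.226%). At distal regions it rose at 765 of 45917 (1.67%) and fell at 129 (0.281%). The promoters that rose had a median of 17.1 normalized tags in basal cells and 86.1 after IL-4, a median log2 fold of 2.02. Those that fell went from a median of 84.6 to 27.9 (median log2 fold -1.76). Distal regions that rose went from a median of 13.3 to 56.8 (1.99), and those that fell from 47.2 to 13.9 (-1.74). These medians describe regions chosen by the test itself. The libraries of the 2 groups did not overlap at any called promoter or distal region. Among all promoters they did not overlap at 870 of 10598, and among all distal regions at 8351 of 45917. Where non-overlap is given below for a called region, it adds no support to the call. Over all 60175 regions the median log2 fold was -0.03.

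The replicate numbers paired the libraries, and a fit with the replicate number as a block called 5883 regions. It called 257 promoters higher (2.42%), 229 promoters lower (2.16%), 3126 distal regions higher (6.81%) and 1957 distal regions lower (4.26%), including all 1037 regions of the unblocked fit. The split of calls toward gain was 83.7% without the block and 61.0% with it. The counts of the unblocked fit also depended on single libraries. Without basal replicate 2 the fit called 319 regions, without basal replicate 3 it called 151, without 24-hour replicate 2 it called 107 and without 24-hour replicate 3 it called 240, against 968 and 756 without basal or 24-hour replicate 1. At promoters these fits called 12 to 49 regions higher and 3 to 30 lower. At distal regions they called 84 to 713 higher and 0 to 127 lower, and the limma counts of 0, without basal replicate 3 or without 24-hour replicate 2, stood beside 1760 and 1618 distal regions lower at an unadjusted p under 0.05. No call changed direction in any of these fits. Standard errors, p-values and leave-one-out fits below are of fits without the block unless the block is named. The deviation that a pair shares is part of their spread, and a library left out leaves its partner unpaired. All 103 named regions called kept their call with the block.

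The thresholds of the study's methods, at least 2.5-fold and at least 8 normalized tags, were also applied to RNA Pol II alone with no test, here to group means plus 1 and to the higher group. By this rule 91 promoters were higher (0.859%) and 48 lower (0.453%), and 1436 distal regions were higher (3.13%) and 487 lower (1.06%). The added 1 was chosen here and bears on these counts, since adding 5 gave 22 promoters lower, 767 distal regions higher and 135 lower.

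**Figure D1:**
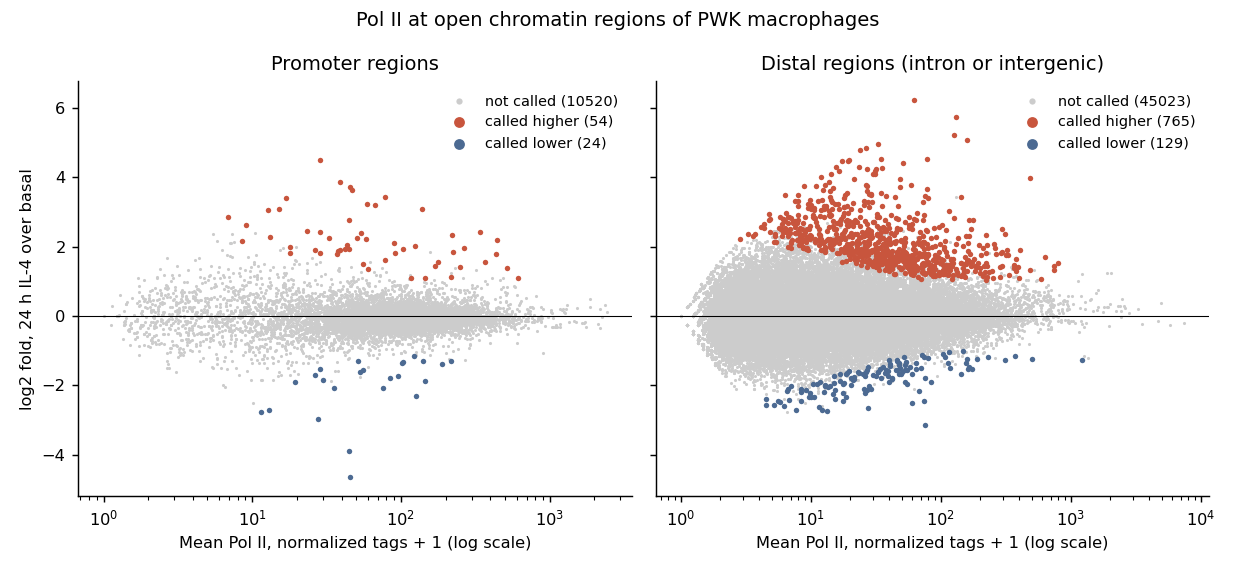
Mean RNA Pol II over the 6 libraries (x axis, normalized tags + 1, log scale) against the log2 fold of 24-hour IL-4 over basal (y axis) for promoter regions (left) and distal regions (right), 1 point per region. Red points are called higher (54 and 765), blue points lower (24 and 129) and grey points were not called, and called regions of low occupancy lie farther from 0 than those of high occupancy.

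Among promoters, the largest gains lay at Gm6116, Mgl2, Rnase2a, Tmem26, Cish and Cdc20b, 1 region per gene. Cish encodes a SOCS family inhibitor of JAK-STAT signalling. Its promoter (chr9:107296097-107297097, 62 bp upstream of the annotated start) held 16.2, 16.1 and 6.82 normalized tags in the basal libraries and 146, 152 and 127 after IL-4. The groups were far apart and the rise came to 3.43 ± 0.34 on the log2 scale (SE, adjusted p = 0.000171). Gm6116, a noncoding gene (chr5:74948223-74949223), rose from 3.53, 0.7 and 0.76 to 49.6, 57.1 and 53.0 normalized tags, a log2 fold of 4.51 ± 0.46 (SE, adjusted p = 0.000232). All 3 basal libraries were near 0 there and the 3 IL-4 libraries were close to each other.

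Mgl2, a C-type lectin that binds galactose-type sugars and marks IL-4-treated macrophages (chr11:70129605-70130605), went from 2.12, 2.1 and 9.09 to 36.0, 75.4 and 103 normalized tags (log2 fold 3.85 ± 0.51, adjusted p = 0.00167). Tmem26, a transmembrane protein, had 2 promoter regions that rose. The farther one (chr10:68722667-68723667, 579 bp upstream) went from 7.76, 6.99 and 3.79 to 77.7, 84.0 and 96.6 (log2 fold 3.64 ± 0.35, adjusted p = 0.000136). The other, over the start, went from a mean of 28.1 ± 1.32 to 248 ± 39.1 (SD, n = 3, log2 fold 3.09 ± 0.25, adjusted p = 4.08e-05). Neither gene's groups overlapped.

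At Rnase2a, a ribonuclease of the eosinophil-associated family (chr14:51255723-51256723), the 3 IL-4 libraries were spread widely. The basal libraries held 5.64, 4.2 and 1.52 normalized tags and the IL-4 libraries 13.7, 84.0 and 158 (log2 fold 3.72 ± 0.69, adjusted p = 0.0132). The groups did not overlap, but 24-hour replicate 1 was the lowest by far. Reads of this family may be shared between near-identical copies, so the division of tags among its members is uncertain. Cdc20b, a relative of the cell cycle factor Cdc20 (chr13:113034665-113035665), went from 2.82, 4.9 and 0 to 33.8, 24.8 and 29.1 (log2 fold 3.41 ± 0.58, adjusted p = 0.00889).

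The largest losses at promoters lay at Cx3cr1, Fcgr1, Slc40a1, Siglece, Mir223 and Icosl. Cx3cr1, the receptor of the chemokine fractalkine (chr9:120067813-120068813), held 73.4, 94.4 and 90.2 normalized tags in basal cells and 1.44, 2.15 and 4.28 after IL-4. Nearly all of its promoter polymerase was absent from the 3 IL-4 libraries, with a log2 fold of -4.65 ± 0.39 (SE, adjusted p = 5.15e-05). A second region 638 bp upstream fell from 83.2 ± 6.76 to 4.71 ± 0.967 (SD, n = 3, log2 fold -3.90 ± 0.34, adjusted p = 5.68e-05). Mir223, a myeloid microRNA, lies within the noncoding transcript F630028O10Rik. The region over it (chrX:96242367-96243367) went from 210, 145 and 275 to 43.1, 35.6 and 41.0 (log2 fold -2.32 ± 0.28, adjusted p = 0.000813), and the promoter of F630028O10Rik itself fell by 1.89 ± 0.32 on the log2 scale (adjusted p = 0.00832, and up to 0.116 without basal replicate 3 or 24-hour replicate 2).

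Fcgr1, the high-affinity receptor for IgG (chr3:96293523-96294523), went from 31.7, 63.0 and 47.7 to 5.03, 2.15 and 10.3 normalized tags (log2 fold -2.97 ± 0.47, adjusted p = 0.00582). Slc40a1, the iron exporter ferroportin (chr1:45925153-45926153), went from 13.4, 18.9 and 25 to 2.88, 2.15 and 0.86 (log2 fold -2.78 ± 0.48, adjusted p = 0.00939). These 2 promoters did not overlap between groups, but the spread among libraries was wide next to their levels. Siglece, an inhibitory receptor for sialic acid (chr7:43659624-43660624), fell from 28.2, 18.9 and 17.4 to 1.44, 3.23 and 2.57 (log2 fold -2.73 ± 0.45, adjusted p = 0.00707). Icosl, the ligand of the T-cell costimulator ICOS (chr10:78068774-78069774), fell from 57.8, 51.8 and 56.8 to 17.98, 5.39 and 18.8 (log2 fold -2.07 ± 0.42, adjusted p = 0.0204).

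Of these 12 promoters, the calls at Gm6116, Tmem26, Cish, Cx3cr1 and Mir223 held whichever of the 6 libraries was left out. Mgl2 lost its call only without 24-hour replicate 2 (adjusted p = 0.0727). Rnase2a, Fcgr1 and Slc40a1 lost theirs without basal replicate 2 or 3 or 24-hour replicate 2, with adjusted p up to 0.204 at Rnase2a, 0.106 at Fcgr1 and 0.117 at Slc40a1, and Rnase2a and Slc40a1 also without 24-hour replicate 3. Cdc20b (adjusted p up to 0.114) lost its call without basal replicate 3 or without 24-hour replicate 2 or 3. Siglece (up to 0.074) lost it without basal replicate 2 or 3 or 24-hour replicate 2. Icosl (up to 0.19) kept it only without 24-hour replicate 1.

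**Figure D2:**
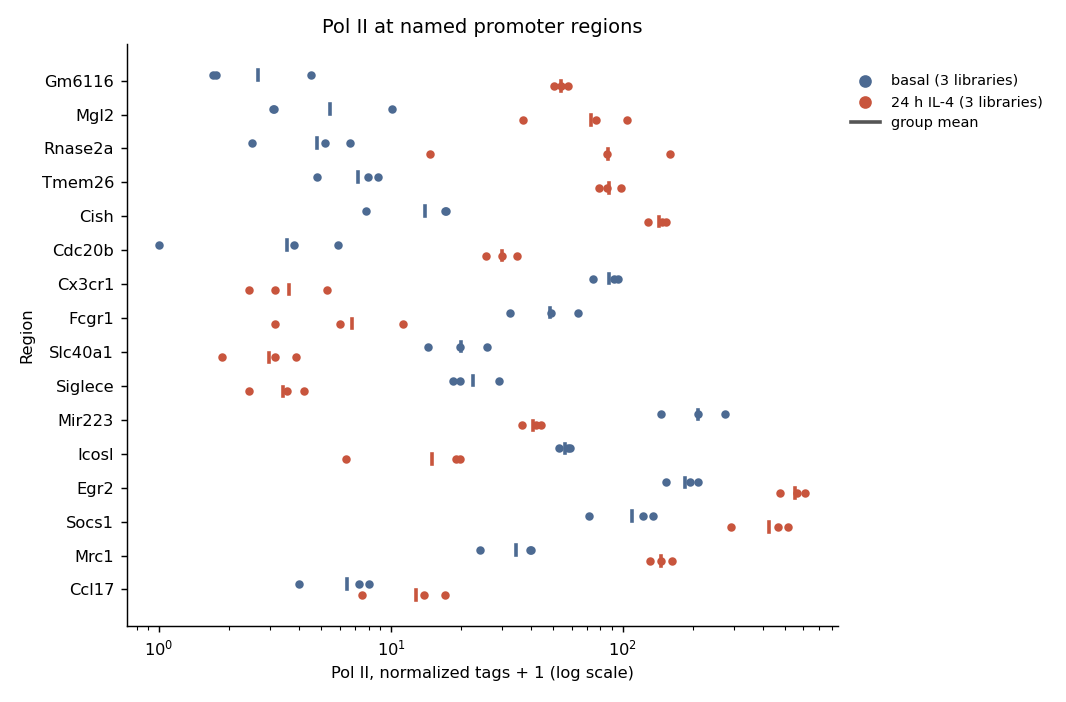
RNA Pol II in each library (x axis, normalized tags + 1, log scale) at 16 named promoter regions, 1 row per gene, with basal libraries in blue, 24-hour IL-4 libraries in red and a bar at each group mean. The groups do not overlap at any gene but Ccl17, whose basal libraries hold 3.03 to 7.05 and IL-4 libraries 6.47 to 16.2 normalized tags. Non-overlap was a condition for naming the largest changes and holds at every called promoter.

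The 54 promoter regions that rose belong to 50 genes and the 24 that fell to 22, and the further genes named in this paragraph and the next were chosen after their values were seen. Itgax, the integrin chain CD11c, went from a mean of 48.3 ± 7.31 to 197 ± 28.8 normalized tags (SD, n = 3), a log2 fold of 2.01 ± 0.26 (SE, adjusted p = 0.00126). Fcgr2b, the inhibitory IgG receptor, rose by 1.93 on the log2 scale (adjusted p = 0.0112), and Ffar4, a receptor of long-chain fatty acids, by 2.40 (adjusted p = 0.0195). Ocstamp (log2 fold 3.09, adjusted p = 0.0171), a membrane protein of cell fusion in osteoclasts, and Atp6v0d2 (2.34, adjusted p = 0.00662), a proton pump subunit with a part in the same process, also rose. The coagulation factors F7 (1.84, adjusted p = 0.00677) and F10 (1.40, adjusted p = 0.011), which lie beside each other in the genome, rose as well, as did the growth factor Hbegf (1.5, adjusted p = 0.0224) and the peptide hormone Edn1 (1.89, adjusted p = 0.0365).

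Among the promoters that fell were Maf, a transcription factor of resident macrophages (mean 272 ± 48.4 to 103 ± 24.6, SD, n = 3, log2 fold -1.40 ± 0.26, adjusted p = 0.0141), and Gas6, a ligand that bridges dying cells to macrophages (40.2 ± 13.5 to 11.1 ± 0.365, log2 fold -1.71 ± 0.36, adjusted p = 0.0266). C5ar1 for the complement fragment C5a (log2 fold -1.30, adjusted p = 0.0318), Cxcr3 for interferon-induced chemokines (-1.90, adjusted p = 0.0162), P2ry13 for ADP (-1.61, adjusted p = 0.0182) and Kdr for VEGF (-1.73, adjusted p = 0.0191) were lower after IL-4. Aoah, which inactivates bacterial lipopolysaccharide, had a log2 fold of -1.35 (adjusted p = 0.0395). Of the 78 promoter regions called, 14 kept their call whichever library was left out (11 higher and 3 lower), and 43 higher and 21 lower lost it without at least 1 library. Of the genes named in this and the preceding paragraph, Itgax kept its call in every such fit. Each of the others lost it without 24-hour replicate 2 and without at least 2 further libraries, with adjusted p up to 0.255, at Aoah.

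The 8 distal regions with the largest gains, 1 per gene, had log2 folds of 4.53 to 6.23. The largest lay in an intron of Il31ra, a receptor subunit for interleukin-31 (chr13:112551307-112552307, 28855 bp from the start). The basal libraries held 0.71, 1.4 and 0 normalized tags and the IL-4 libraries 85.6, 139 and 144, a log2 fold of 6.23 ± 0.44 (SE, adjusted p = 1.03e-05). RNA Pol II was close to nil there in all 3 basal libraries. In the first intron of Tmem26 (chr10:68725240-68726240, 1994 bp from the start), beside the promoter described above, the level went from 2.82, 4.9 and 3.79 to 303, 218 and 251 (log2 fold 5.75 ± 0.31, adjusted p = 1.2e-06). A region 3475 bp from the start of Socs1 (chr16:10781561-10782561), which lies 1747 bp beyond the annotated end of that gene, went from 12.7, 2.8 and 4.55 to 296, 230 and 215 (log2 fold 5.21 ± 0.41, adjusted p = 2.99e-05). Promoter regions of Tmem26 and Socs1 rose too, while Il31ra had no promoter region in the table.

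Other gains lay between genes. Distances here are to the nearest start in the file, which need not be a target. The region 5121 bp upstream of Stxbp3, a vesicle docking factor (chr3:108845123-108846123), went from 2.12, 0 and 1.52 to 62.6, 47.4 and 77.8 normalized tags (log2 fold 4.97 ± 0.49, adjusted p = 0.000152). The region 9137 bp upstream of Zeb2, a transcriptional repressor (chr2:45126079-45127079), went from 0.71, 0.7 and 0.76 to 33.8, 65.7 and 51.3 (log2 fold 4.84 ± 0.44, adjusted p = 8.78e-05). The region 81380 bp upstream of Cry1, a repressor of the circadian clock (chr10:85265934-85266934), went from 1.41, 0 and 0.76 to 64.0, 32.3 and 40.2 (log2 fold 4.79 ± 0.49, adjusted p = 0.000216). At each of the 3, every basal library was under 3 normalized tags and every IL-4 library over 30.

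Pdgfrl and Cyp1b1 complete the set. The region 1560 bp upstream of Pdgfrl (chr8:40924173-40925173) went from 7.05, 2.1 and 3.79 to 319, 75.4 and 60.7 normalized tags (log2 fold 4.54 ± 0.55, adjusted p = 0.000813), with 24-hour replicate 1 far above the others. The region 11530 bp from the start of Cyp1b1, a cytochrome P450 enzyme (chr17:79703031-79704031), lies 3409 bp past the annotated gene and went from 1.41, 2.8 and 0.76 to 42.4, 117 and 37.6 (log2 fold 4.53 ± 0.50, adjusted p = 0.000397). All 8 of these distal calls held whichever library was left out, with the largest adjusted p, 0.042, at Pdgfrl without basal replicate 3.

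The largest distal losses were smaller, and their calls were less stable in the fits without the block. In an intron of Dkk2, a secreted regulator of Wnt signalling (chr3:132086918-132087918), the level went from 81.1, 106 and 211 to 12.9, 5.39 and 29.9 normalized tags (log2 fold -3.14 ± 0.49, adjusted p = 0.0052). The groups did not overlap, although basal replicate 3 held far more than the others. A region 48370 bp upstream of Ypel5 (chr17:72787758-72788758) went from 22.6, 25.9 and 16.7 to 5.75, 1.08 and 1.71 (log2 fold -2.73 ± 0.51, adjusted p = 0.0135). The other 4, near Rplp1, Gpr31b, Fnbp1 and Msl1, fell by 2.61 to 2.72 on the log2 scale (adjusted p = 0.0153, 0.0292, 0.045 and 0.0265) from basal means of 12.4, 20.0, 18.2 and 9.73 normalized tags. All 6 lost their calls without basal replicate 2 or 3 or without 24-hour replicate 2, with adjusted p up to 0.116 at Dkk2, 0.132 at Ypel5, 0.144 at Rplp1, 0.225 at Gpr31b, 0.252 at Fnbp1 and 0.198 at Msl1. Without 24-hour replicate 3, Dkk2 alone of the 6 kept its call, and Gpr31b and Fnbp1 also lost theirs without basal replicate 1.

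**Figure D3:**
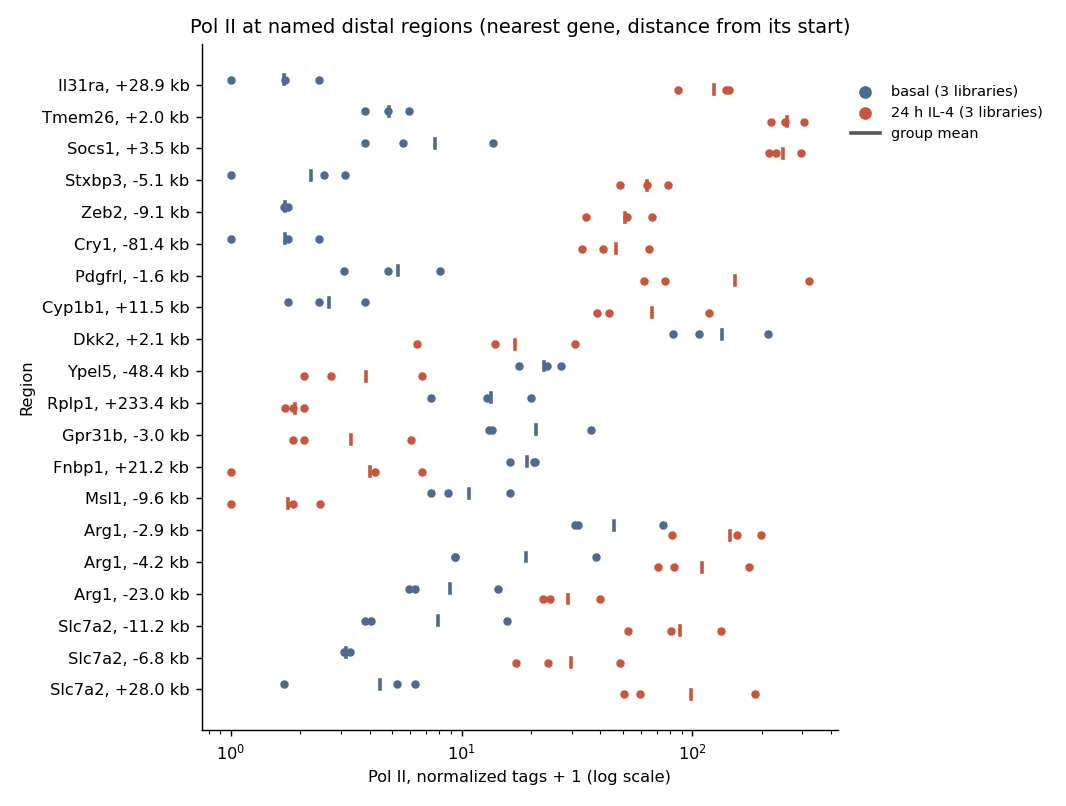
RNA Pol II in each library (x axis, normalized tags + 1, log scale) at 20 named distal regions, 1 row per region labelled by its nearest gene and the distance from its start in kb, with basal libraries in blue, 24-hour IL-4 libraries in red and a bar at each group mean. The groups do not overlap at any row, and the 8 uppermost rows have IL-4 libraries between 32.3 and 319 normalized tags. Non-overlap was a condition for naming the rows with the largest changes.

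Of the 868 regions of all classes called higher, 585 (67.4%) had another region called higher within 20 kb, beside 3.73% of all 60175 regions. Of the 169 called lower, 79 (46.7%) had another called lower within 20 kb, beside 0.932% of all. The file's regions can overlap (5951 neighbouring pairs do), so neighbours are not independent and share tags. The genes nearest to most regions called higher were 4930563J15Rik with 19 of its 26 regions, Bcar3 with 16 of 17 and Niban2 with 15 of 30. They were picked by these counts, which stand beside 1.44% of all regions called higher. Bcar3 encodes an adaptor of integrin signalling. The 16 regions summed to 280, 316 and 270 normalized tags in basal cells and 1282, 990 and 1094 after IL-4. Sums here and in the paragraphs on Egr2 and on losses are over called regions only, so the gap between their groups follows from the calls. The median log2 fold of the 16 Bcar3 regions was 1.85. At the Bcar3 intronic region with the largest gain (chr3:122422004-122423004), tags went from 25.4, 19.6 and 28.8 to 175, 109 and 166 (log2 fold 2.55 ± 0.29, adjusted p = 0.000536), a call that held whichever library was left out. The Niban2 region with the largest gain (chr2:32907045-32908045) went from 89.6, 75.5 and 49.2 to 300, 200 and 196 (log2 fold 1.70 ± 0.29, adjusted p = 0.00821), and lost its call without basal replicate 2 or 3 or 24-hour replicate 2 (adjusted p up to 0.0854).

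The regions nearest to 4930563J15Rik lie downstream of Egr2, the transcription factor induced by IL-4. Of 31 regions 5000 to 200000 bp downstream of the first annotated start of Egr2, 22 were called higher and none lower. All 31 had a log2 fold above 0 (median 1.64). Among all regions 1.44% were called higher. The stretch holds the regions for which 4930563J15Rik was picked, so a high count there follows in part from the choice. The 22 called regions lay 6929 to 192722 bp from the start of Egr2. They summed to 939, 1725 and 1386 normalized tags in basal cells and 4200, 3926 and 4485 after IL-4, and basal replicate 1 was the lowest. The region with the largest gain of this stretch (chr10:67727283-67728283) went from 1.41, 6.99 and 3.79 to 17.3, 37.7 and 38.5 (log2 fold 2.75 ± 0.51, adjusted p = 0.0134, up to 0.174 without 1 library). At the Egr2 promoter itself (chr10:67537272-67538272), RNA Pol II went from 152, 209 and 193 to 611, 473 and 562 (log2 fold 1.57 ± 0.24, adjusted p = 0.00464, and 0.0503 without 24-hour replicate 3).

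Among losses, the most regions lay nearest to Dkk2 (6 of 19), Fyb (6 of 12), Cx3cr1 (5 of 6) and Maf (5 of 34). These genes and the runs below were picked by their calls, beside 0.281% of all regions called lower. The 5 regions of Cx3cr1, which include its 2 promoter regions and 2 in introns, summed to 343, 327 and 336 normalized tags in basal cells and 44.6, 34.5 and 68.4 after IL-4. They varied little among basal libraries. With 2 regions nearest to Xirp1, they form a run on chr9:120037089-120069434 in which all 7 regions were called lower. The 6 regions of Fyb, an adaptor of immune receptor signalling, summed to 1009, 475 and 577 in basal cells and 282, 158 and 232 after IL-4, with replicate 1 highest in both groups. A further run on chr17:35178283-35196351 held 6 regions called lower of 7, nearest to Lst1, Aif1, Ltb and Mir6973a.

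RNA Pol II at open regions in introns was read beside the call of the gene's promoter. Whole gene bodies were not counted, and an intronic region can overlap a promoter region and share its tags. Of the genes whose promoter region rose (45, counting the region nearest each start), 24 had open regions in their introns. Of these 78 intronic regions, 35 were called higher (44.9%) and none lower, with a median log2 fold of 1.67, beside 1.5% of all intronic regions called higher and a median of 0.00. Of the 22 genes whose promoter fell, 14 had 40 intronic regions, and 6 were called lower (15%) beside 0.202% of all intronic regions, with a median of -1.0. Of the 765 distal regions that rose, 70 (9.15%) lay nearest to a gene whose promoter rose. For 366 the promoter region of the nearest gene was not called, and for 329 that gene had no promoter region in the table. Of the 129 distal regions that fell, 11 (8.53%) lay nearest to a gene whose promoter fell. The same shares over all distal regions were not counted, so these counts cannot tell whether distal and promoter changes go together.

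The chitinase, arginine and resistin genes classically used as IL-4 markers could be read only in part, since 11 of the 16 effector genes listed had no promoter region. Arg1, the enzyme that splits arginine, had 3 regions upstream. At 2879 bp (chr10:24929849-24930849) the level went from 73.4, 30.1 and 31.1 to 198, 80.8 and 156 normalized tags (log2 fold 1.70 ± 0.39, adjusted p = 0.0393). At 4217 bp (chr10:24931187-24932187) it went from 37.4, 8.39 and 8.33 to 175, 70.0 and 82.1 (log2 fold 2.76 ± 0.50, adjusted p = 0.0121). Replicate 1 was highest in both groups at both regions. The third, at 22955 bp, held 4.9 to 13.4 in basal and 21.6 to 38.8 in IL-4 libraries (log2 fold 1.78 ± 0.44, adjusted p = 0.062, and 2.35e-05 with the replicate block). The 2 calls were lost without 4 or 5 of the 6 libraries each, the exceptions being basal replicate 1 for both and 24-hour replicate 1 for the farther region, with adjusted p up to 0.298 at 2879 bp and 0.175 at 4217 bp.

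Slc7a2, which imports arginine, also had 3 regions and no promoter region. At 11173 bp upstream (chr8:40850694-40851694) the level went from 14.8, 2.8 and 3.03 to 132, 51.7 and 79.5 normalized tags (log2 fold 3.73 ± 0.52, adjusted p = 0.00232, and 0.0688 without basal replicate 3). In an intron (chr8:40889910-40890910) it went from 4.23, 0.7 and 5.3 to 186, 58.2 and 49.6 (log2 fold 4.43 ± 0.56, adjusted p = 0.00122). The groups did not overlap at either, and the intronic call held whichever library was left out. The last region, 6832 bp upstream, lies on the pseudogene Gm8445, so its tags (log2 fold 3.10 ± 0.47, adjusted p = 0.00439) may belong in part to a copy elsewhere. Its call was lost without basal replicate 3 or 24-hour replicate 2 (adjusted p up to 0.0727).

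For the checkpoint ligand Pdcd1lg2, 1 of 8 nearby regions was called, an intronic region that went from 0.71, 2.8 and 6.06 to 15.1, 15.1 and 23.95 normalized tags (log2 fold 2.38 ± 0.54, adjusted p = 0.0388), and it lost its call when any library was left out (adjusted p up to 0.21). The region 8836 bp upstream of Retnla, the resistin-like molecule alpha, held 0 to 3.42 normalized tags in all 6 libraries (adjusted p = 0.855), which is too few to read. Chil3 had no region.

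Promoters of 13 gene lists were read at the region nearest each gene's start, beside 45 promoters higher and 22 lower among all 9570 genes with a promoter region (median log2 fold -0.05). These counts follow the fit over all regions, and the lists were drawn up with earlier results of these data known. Over all 10598 promoter regions, an unadjusted p under 0.05 gave 272 higher and 273 lower. For edgeR with TMM scaling these numbers were 59 and 29, for DESeq2 90 and 48, and for the replicate block 257 and 229. List counts by the same rules, here and in the next paragraphs, stand beside these. Among lectins and scavenger receptors, 5 of 10 measured genes rose and none fell (median 1.16, and 6 higher and 1 lower with the block). They were Mgl2, Mrc1, Clec7a, Cd36 and Tmem26, the last of which is a membrane protein and no known lectin. The accession at Clec7a carried no symbol, and the gene was added through its nearest start after it was seen to be called. Without it, 4 of 9 rose (median 0.70). Clec7a, the beta-glucan receptor dectin-1, went from 50.8, 122 and 177 normalized tags to 635, 529 and 519 (log2 fold 2.43 ± 0.36, adjusted p = 0.00346, and 0.0823 without 24-hour replicate 2). The mannose receptor Mrc1 went from 23.3, 39.2 and 38.6 to 162, 144 and 130 normalized tags (log2 fold 2.11 ± 0.28, adjusted p = 0.00174). The fatty acid scavenger Cd36 went from 35.3, 43.4 and 34.1 to 105, 114 and 134 (log2 fold 1.62 ± 0.26, adjusted p = 0.00634, and up to 0.077 without 1 library). The groups did not overlap at any of the 3.

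Of the 15 measured genes of the IL-4 receptor, JAK-STAT pathway and its feedback, 4 rose and none fell (median -0.13, and 5 higher and 1 lower with the replicate block). They were Cish, Socs1, Socs2 and Csf2rb. The block added Socs3 (log2 fold 0.75, adjusted p = 0.459, and 0.0185 with the block) and, in the other direction, the phosphatase gene Ptpn6 (log2 fold -0.86, adjusted p = 0.143, and 0.00359 with the block). Socs1, a feedback inhibitor of JAK kinases, went from 121, 134 and 70.5 to 463, 514 and 292 (log2 fold 1.97 ± 0.30, adjusted p = 0.00443, and up to 0.0884 without 1 library), and a second promoter region 989 bp upstream rose by 3.22 on the log2 scale (adjusted p = 0.00021). Socs2 went from 15.2 ± 5.84 to 58.8 ± 24.7 normalized tags (SD, n = 3, log2 fold 1.87 ± 0.40, adjusted p = 0.0296). Csf2rb, the shared receptor chain of GM-CSF, IL-3 and IL-5, went from 344, 451 and 369 to 963, 691 and 847 (log2 fold 1.10 ± 0.25, adjusted p = 0.0376). Its call was lost when any library was left out (adjusted p 0.0705 to 0.177), and that of Socs2 in all cases but without 24-hour replicate 1 (up to 0.226).

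Among 28 measured transcription factors of the IL-4 response, Egr2 rose and Maf fell (6 higher and 2 lower with the replicate block). Batf3, which partners AP-1 factors, held 17.6, 26.6 and 21.97 normalized tags in basal and 27.3, 73.3 and 106 in IL-4 libraries and was called only with the block (adjusted p = 0.129, and 1.54e-05 with the block). Among 14 genes of lipid handling and eicosanoids, Ptgs1, the cyclooxygenase COX-1, rose from 12.1 ± 5.19 to 43.5 ± 9.77 (SD, n = 3, log2 fold 1.82 ± 0.38, adjusted p = 0.0264, up to 0.191 without 1 library). Hpgds, which makes prostaglandin D, fell from 200 ± 10.8 to 81.7 ± 9.09 (-1.29 ± 0.24, adjusted p = 0.0132, up to 0.108 without 1 library). The block gave 2 higher and 3 lower there. Of the 5 measured arginine, chitinase and resistin effectors, only Rnase2a was called (2 with the block).

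None of 11 measured promoters of chemokines and T-cell ligands was called by limma or edgeR (median log2 fold 0.61, 1 at an unadjusted p under 0.05, 1 by DESeq2 and 2 with the block). Ccl22, a ligand of the receptor CCR4, held 0.71, 2.1 and 2.27 normalized tags in basal and 2.88, 26.9 and 22.2 in IL-4 libraries (adjusted p = 0.106, and 1.06e-05 with the block). Ccl17, a ligand of the same receptor, held 7.05, 6.29 and 3.03 against 6.47, 16.2 and 12.8 (log2 fold 0.97 ± 0.49, adjusted p = 0.467). Its groups overlapped.

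No promoter of 22 measured Toll-like receptor and NF-kB inflammatory genes was called by limma (median -0.32), although 7 were lower at an unadjusted p under 0.05, 2 by edgeR, 4 by DESeq2 and 7 with the block, and none higher by any of these. Nlrp3, an inflammasome sensor, held 532, 259 and 349 normalized tags in basal and 221, 98.0 and 153 in IL-4 libraries (log2 fold -1.28 ± 0.33, adjusted p = 0.0685, and 1.34e-06 with the block). Tlr9, the sensor of bacterial DNA, held 53.6, 82.5 and 119 against 18.7, 19.4 and 63.3 (adjusted p = 0.125, and 1.32e-06 with the block). Of 19 interferon-stimulated genes none was called (limma, edgeR and DESeq2), with 1 lower at an unadjusted p under 0.05 and with the block. Of 8 chemokine and fractalkine receptors, Cx3cr1 and C5ar1 fell (3 lower with the block), and the call of C5ar1 was lost without any library but basal replicate 1 (adjusted p up to 0.231).

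Of 23 cell cycle genes none was called by limma, edgeR, DESeq2, the block or an unadjusted p under 0.05 (median -0.14). None of 6 MHC class II presentation genes was called by limma, edgeR, DESeq2 or an unadjusted p, and 1 rose with the block. That gene, Cd74, the invariant chain, held 14.8, 160 and 154 normalized tags in basal and 25.9, 208 and 330 in IL-4 libraries (adjusted p = 0.856, and 0.0222 with the block). Replicate 1 was far below the others in both groups. Fn1, fibronectin, had the same split, with 5.64, 32.2 and 58.3 in basal and 7.91, 124 and 214 in IL-4 libraries (adjusted p = 0.651, and 1.85e-05 with the block).

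The macrophage label was checked against its markers. Of 8 macrophage markers 7 had a promoter region, and Fcgr1 was the 1 called (3 lower with the block). Itgam, the integrin chain CD11b, held 94.0 to 157 normalized tags in basal and 134 to 160 in IL-4 libraries, and lysozyme, Lyz2, held 750 to 1518 and 352 to 902 (log2 fold -1.06, adjusted p = 0.186, and 0.000371 with the block). Of 19 markers of T, B, mast, erythroid and dendritic cells, neutrophils and fibroblasts, 16 had no promoter region in the table. Among those that did, the dendritic cell factor Zbtb46 rose from 6.35, 9.09 and 3.03 to 18.7, 44.2 and 20.5 (log2 fold 2.00 ± 0.47, adjusted p = 0.0471) and lost its call when any library was left out (adjusted p up to 0.329). The neutrophil gene S100a8 held 31.8 to 151 in basal and 51.3 to 92.04 in IL-4 libraries. The part of such cells in the results was not tested.

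**Figure D4:**
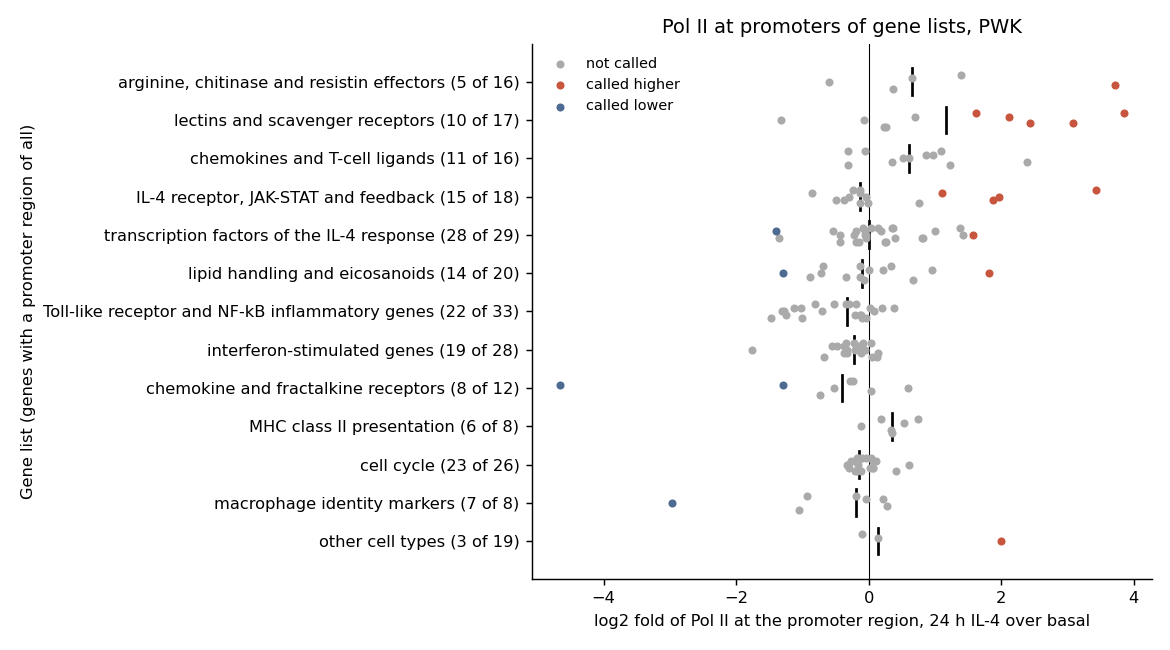
The log2 fold of RNA Pol II at the promoter region of each measured gene (x axis, 24-hour IL-4 over basal) for the 13 gene lists (rows, with the number of genes that have a promoter region of all listed), red for genes called higher, blue for lower and grey for not called, with a bar at each list's median. The medians lie between -0.40 and 1.16, and most called genes stand apart from the rest of their list.

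Open chromatin and histone marks, which played no part in the calls, were read at the same regions. An ATAC-seq peak was called only after IL-4 at 33.3% of promoters that rose and 42.1% of distal regions that rose, beside 8.98% of all promoters and 20.3% of all distal regions. A peak called only in basal cells lay at 37.5% of promoters that fell (9 of 24) and 25.6% of distal regions that fell, beside 12.9% and 20.4% of all. H3K27ac, acetylation found at active promoters and enhancers, was counted as changed where the means of 2 libraries per group plus 1 differed at least 2.5-fold and did not overlap. It was higher at 30 of 54 promoters that rose (55.6%, beside 1.14% of all promoters) and at 422 of 765 distal regions that rose (55.2%, beside 6.09%). It was lower at 15 of 24 promoters that fell (62.5%, beside 0.981%) and at 87 of 129 distal regions that fell (67.4%, beside 3.96%). At none of these promoters and distal regions did it change the other way.

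H3K4me3, methylation typical of promoters, was higher at 14 of 54 promoters that rose (25.9%, beside 0.51% of all promoters) and at 218 distal regions that rose (28.5%, beside 6.64%). These distal regions held few tags of it, with medians of 2.6 in basal cells and 6.21 after IL-4, and the rule sets no minimum level. H3K4me3 was lower at 7 of 24 promoters that fell (29.2%, beside 0.17%) and at 9 of 129 distal regions that fell (6.98%, beside 0.237%). It went the other way at 2 distal regions that rose (0.261%) and 2 that fell (1.55%). H3K4me2, methylation of promoters and enhancers, was read by the same rule. It was higher at 4 (7.41%) and lower at 1 (1.85%) of the 54 promoters that rose, beside 0.104% and 0.0472% of all promoters, and lower at 2 of 24 promoters that fell (8.33%). It was higher at 83 of 765 distal regions that rose (10.8%, beside 1.76%) and lower at none of the 129 that fell (beside 0.0697%). The marks did not always follow RNA Pol II. At the Il31ra intron H3K27ac went from 5.16 to 259 normalized tags (means of 2 libraries), but at the Egr2 promoter from 152 to 228, at the Mrc1 promoter from 77.0 to 115 and at the Csf2rb promoter from 406 to 392, all under 2.5-fold. At the Cx3cr1 promoter it fell from 195 to 14.8.

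Peaks of 5 transcription factors in PWK macrophages were laid over the regions (overlap of at least 1 bp with the reproducible peaks of each condition). A STAT6 peak of the 24-hour list lay at 40 of 54 promoters that rose (74.1%) and 612 of 765 distal regions that rose (80%), beside 26.7% of all promoters and 56.1% of all distal regions. STAT6 peaks in the 24-hour list but not in the basal list lay at 51.9% and 57.4% of these sets, beside 19.1% and 31.6% of all. Among distal regions that fell, 65.1% had a 24-hour STAT6 peak and 54.3% a basal one, the latter beside 26.0% of all distal regions. Among promoters that fell, 45.8% had a 24-hour STAT6 peak and 41.7% a basal one, the latter beside 9.82% of all promoters. EGR2 peaks at 24 hours lay at 57.4% of promoters that rose (49.9% of all promoters), at 30.6% of distal regions that rose (14.9% of all) and at 14.7% of distal regions that fell.

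PPARg, a fatty acid-sensing nuclear receptor, had 24-hour peaks at 49.9% of distal regions that rose, 38.0% of those that fell and 39.5% of all. CEBPb, a myeloid factor, had 60.4%, 61.2% and 47.6%. PU1, the factor that defines the macrophage lineage, had 76.5%, 80.6% and 72.2%. A PU1 peak in the 24-hour list but not in the basal list was found at 16.3% of distal regions that rose, beside 4.54% of all. Read the other way, RNA Pol II rose at 214 of 5264 distal regions with both an EGR2 and a STAT6 peak at 24 hours (4.07%), at 1.94% of those with a STAT6 peak alone, at 1.27% of those with an EGR2 peak alone and at 0.716% of those with neither. The Socs1, Pdgfrl and Cyp1b1 regions described above overlapped no peak of the 5 factors, while the Il31ra and Cry1 regions overlapped 24-hour peaks of STAT6, EGR2, PPARg and PU1.

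Motif letters were searched on both strands in the central 300 bases of every region. The STAT6 motif, as capitals in the sequences of Il31ra, Stxbp3, Zeb2, Cry1, Slc7a2, Arg1 and Gm6116, was held by 28.1% of distal regions that rose, 6.2% of those that fell and 8.33% of all distal regions. At promoters it was held by 24.1% of those that rose, 8.33% of those that fell (2 of 24) and 4.54% of all. The STAT motif with 3 bases between TTC and GAA, as at Cish, was held by 12.5% of distal regions that rose and 9.26% of all. The AP-1 motif (TGANTCA) was held by 30.2% and 24.7%, the PU.1 motif (GAGGAAGT) by 8.24% and 13.3% and the EGR motif (GCGNGGGCG) by 0.523% and 0.889%. These letters were not searched as weighted patterns, and their absence says only that the exact letters are not in the window. Distal regions with both a STAT6 motif and a 24-hour STAT6 peak rose in 207 of 2881 cases (7.19%), those with the peak alone in 1.77%, those with the motif alone in 0.847% and those with neither in 0.755%.

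**Figure D5:**
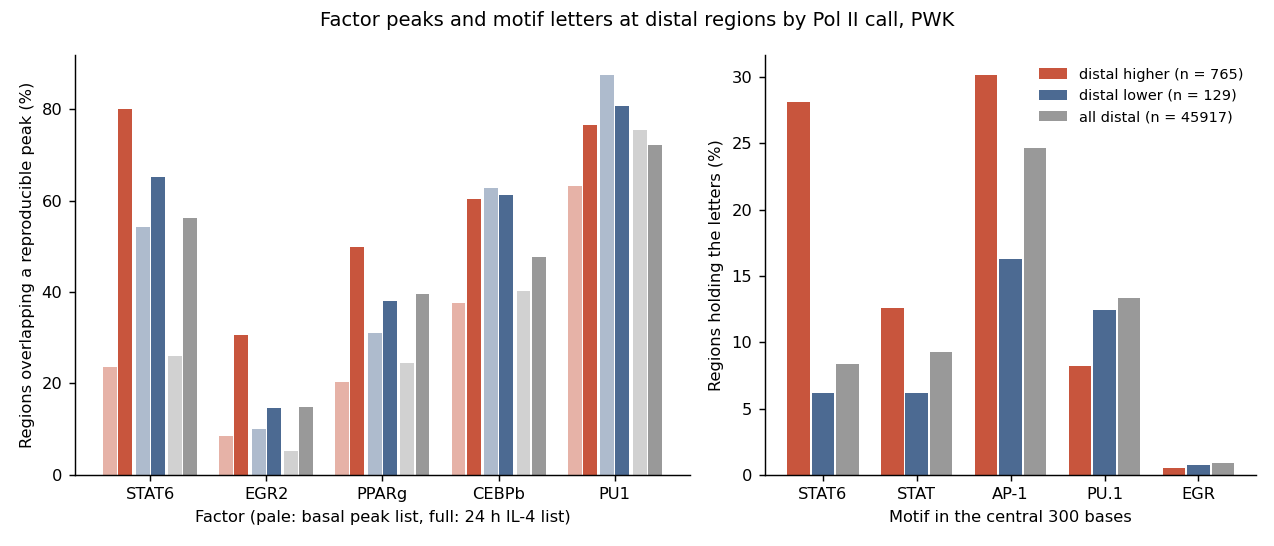
Left, the share of distal regions (y axis, %) that overlap a reproducible peak of each factor, pale bars for the basal peak list and full bars for the 24-hour IL-4 list. Right, the share that hold each motif in the central 300 bases, in both panels for distal regions called higher (red, n = 765), lower (blue, n = 129) and all (grey, n = 45917). In percentage points the red bars exceed the grey ones most for STAT6, at 80% against 56.1% for 24-hour peaks and 28.1% against 8.33% for the motif, and the 24-hour EGR2 peaks stand at 30.6% against 14.9%.

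The same regions were looked up in the tables of the other 4 strains, where a region's centre lay within 500 bp. Each table was normalized on its own, so values stand side by side with no test between strains, and a region that was not matched may be closed or differently placed there. Past 2.5-fold means that group means plus 1 differed at least 2.5-fold and that the higher group reached 8 normalized tags. Of the distal regions that rose in PWK, 46.5% of 565 matched regions were past 2.5-fold higher in C57 (1.94% of all matched distal regions), 68.9% of 534 in BALB (5.9%), 60.7% of 585 in NOD (2.98%) and 37.5% of 485 in SPRET (1.6%). For promoters that rose, the shares were 55.1% in C57 (0.494% of all matched promoters), 81.4% in BALB (5.54%), 50% in NOD (0.671%) and 36.6% in SPRET (0.422%). The median log2 fold over all matched promoters in BALB was 0.55, so its gains are counted from a shifted base.

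Of the promoters that fell in PWK, 57.1% were past 2.5-fold lower in C57 (0.652% of all matched), 27.3% in BALB (0.182%), 70.8% in NOD (0.632%) and 27.8% in SPRET (0.357%). Of the distal regions that fell, the shares were 38.8% in C57 (2.12%), 23.5% in BALB (1.08%), 30.6% in NOD (1.4%) and 39.2% in SPRET (1.21%). No PWK region called in either class was past 2.5-fold the other way in any strain. Of the 356 distal regions that rose in PWK and were matched in all 4 strains, 92 differed at least 2.5-fold upward in every other strain and 62 in none. The PWK regions were called by the test and not by fold, with log2 folds from 1.04 upward. Some fell short of 2.5-fold in PWK itself, such as the Csf2rb promoter, with means of 388 in basal and 833 in IL-4 libraries. The same shares over all distal regions matched in 4 strains are not given.

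Single regions differed in this respect. Gm6116 was higher after IL-4 in all 4 other strains, with 24-hour means of 21.7 ± 8.54 in C57 (SD, n = 3), 24.5 ± 4.57 in BALB (n = 2), 17.1 ± 1.34 in NOD (n = 2) and 39.6 ± 15.5 normalized tags in SPRET (n = 3), and the Cx3cr1 promoter was lower in all 4, with 24-hour means of 3.09 to 7.58. The groups did not overlap in any of them. The Cry1 region held 45.5 ± 16.5 normalized tags after IL-4 in PWK, 32.3 ± 24.4 in C57 and 1.36 ± 1.78 in SPRET (SD, n = 3 each) and had no match in BALB or NOD. In basal cells it held a mean of 0.723 in PWK and 0.17 in SPRET, and 8.88 ± 15.3 in C57 (SD, n = 4), where the groups overlapped. The Dkk2 intron, at 133 ± 69.1 in basal PWK cells (n = 3), held 13.05 ± 3.12 in C57 (n = 4), 14.4 ± 3.86 in BALB (n = 3) and 13.5 ± 8.05 in NOD (n = 2). The Fcgr1 promoter held 47.5 ± 15.6 in basal PWK cells, 263 ± 110 in C57, 189 ± 78.9 in BALB, 156 ± 117 in NOD and 5.29 ± 3.99 in SPRET. Whether reads of each strain map equally well at these regions was not tested.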

How the data were processed

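RNA Pol II, H3K27ac, H3K4me2 and H3K4me3 ChIP-seq tags, ATAC-seq regions and transcription factor peaks of PWK macrophages were used. As the methods describe, the authors mapped reads with bowtie2 to strain-specific genomes, shifted them to mm10 and counted tags with HOMER in the 1000 bp around reproducible ATAC-seq peaks. The deposited tag tables hold a signal, tags scaled by the authors to 10000000 per library. The deposited peak files list reproducible peaks with a score, of which only positions were used. Of the PWK values, 100% came out as whole reads (1083150 of 1083150, within 0.1 read) when multiplied by their library's total tags and divided by 10000000. The form of RNA Pol II that the antibody recognises is not given in the sources used here. Labels name biological replicates. Of the 5 tables, 48 other per-sample columns were not used.

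Values were tested as log2(normalized tags + 1) with limma 3.58.1 (R 4.3.3, trended eBayes) over all 60175 regions of 3 basal and 3 24-hour libraries with no filter, and p-values were adjusted by Benjamini-Hochberg over all regions (threshold 0.05). The added 1 shrinks the fold of regions with few tags. Alternatives were DESeq2 1.42.0 and edgeR 4.0.16 (by quasi-likelihood), both on the recovered reads, a pseudocount of 5, a filter at 8 normalized tags, median-ratio scaling, each library left out and the replicate number as a block. Deviations of same-numbered libraries from their group means correlated at 0.614, 0.412 and 0.491 (43116 regions), so the numbers were taken as pairs. Scripts were tested on simulated data.

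Named regions were the called, non-overlapping regions of at least 8 normalized tags with the largest log2 fold, 1 per gene (6 promoters each way, 8 distal regions higher and 6 lower, over 1000 bp from a start), genes the study uses as examples, the 4 list members farthest from 0 and the genes nearest most called regions (3 each way, with ties). The regions and lists were chosen with earlier results of these data known. Symbols came from RefSeq (GRCm38.p6) for 10544 of 10598 promoter accessions (99.5%), and the others took the nearest start within 1000 bp. That match was made after Clec7a was seen to be called, and it added Clec7a and Mx1 to the lists. The values of 1 marker gene are not reported here.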

Additional observations from a re-analysis of the deposited data

Results flagged for a closer look

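In the C57 basal libraries (n = 4), 1 library stood far from the other 3 at 4 of the regions named for PWK. The distance of that library to its nearest neighbour, as a share of the whole range of the group, was 0.875 at the Siglece promoter, 0.926 at the Tmem26 intronic region, 0.888 at the Zeb2 region and 0.981 at the Cry1 region, each above Dixon's 95% critical value for 4 samples. At all 4 it was basal replicate 1 that was high, and the C57 basal means of 30.1, 3.88, 23.6 and 8.88 normalized tags rest on it. Chance gives such a gap in about 1 in 20 groups. The groups of PWK hold 3 libraries each and were not searched for such gaps.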

How the results depend on the processing

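The counts of called regions depended on the processing. The replicate block gave 5883 regions in all, 257 promoters higher, 229 promoters lower, 3126 distal regions higher and 1957 lower, and DESeq2 gave 1575 in all, 90 promoters higher, 48 promoters lower and 251 distal regions lower. Leaving out each library gave 107 to 968 regions in all, 12 to 49 promoters higher, 3 to 30 promoters lower, 84 to 713 distal regions higher and 0 to 127 lower. In a check chosen after seeing the data, the block without pair 1, 2 or 3 gave 2976, 3732 and 442 regions in all, 110, 310 and 29 promoters higher, 90, 97 and 9 lower, 1786, 2300 and 343 distal regions higher, and 847, 731 and 29 lower. A pseudocount of 5, the filter, median-ratio scaling and edgeR stayed within 1.5 times of each of these counts. By fold alone, at least 2-fold gave 149 promoters higher, 123 lower, 2441 distal regions higher and 1361 lower, and a pseudocount of 5 gave 22 promoters lower, 767 distal regions higher and 135 lower. At least 16 normalized tags left 283 distal regions lower. Leaving out a library gave 52 to 81 promoters lower and 440 to 899 distal regions lower by fold. The causes were not tested.

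Of 103 named regions called, all kept their call with the replicate block, edgeR on library totals and DESeq2, while median-ratio scaling lost 11, edgeR with TMM 7, the filter 3 and a pseudocount of 5 lost 1. The block changed no other call among them. Leaving out a library lost 23 to 77, most without 24-hour replicate 2. The 1 reversal was at the Cd74 promoter, which was not called. Its log2 fold of 0.75 ranged from -0.36 (without basal replicate 1) to 1.84 when a library was left out.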
